A study of Mus musculus with 2 samples.

Results

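The mouse Fc receptor family, represented by 6 genes, was followed through every cell class of a CD64 sort from the thymus. The 6 members were the rows of the gene list whose symbol was Fcgr1 (ENSMUSG00000015947), Fcgr2b (ENSMUSG00000026656), Fcgr3 (ENSMUSG00000059498), Fcgr4 (ENSMUSG00000059089), Fcer1g (ENSMUSG00000058715) or Fcgrt (ENSMUSG00000003420), 6 of 32285 gene rows. All 6 had UMIs (unique molecular identifiers, 1 per captured transcript). The cells came from the thymus of adult C57BL/6 mice, and the labels name no treatment. The organ was digested with a spleen dissociation kit, and cells carrying CD64, the protein of Fcgr1, were taken by flow cytometry and run on the 10x Genomics Chromium 3′ platform. The labels give 2 libraries of this 1 group, named 2021 and 2024, with no word on how many animals were pooled. Gene-level values come from the 2021 library, and the 2024 library was used for its depth only.

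Fc receptors bind the constant part of antibodies. Fcgr1 is the high-affinity receptor for IgG and binds single antibody molecules, while Fcgr3 and Fcgr4 bind IgG best in immune complexes. These receptors are activating: they signal through Fcer1g, the shared Fc receptor gamma chain, whose ITAM is phosphorylated by Src family kinases and then recruits Syk. Fcgr2b is the inhibitory IgG receptor, with an ITIM in its tail that recruits the phosphatase Inpp5d. Fcgrt is the heavy chain of the neonatal Fc receptor, which pairs with B2m and returns internalised IgG to the cell surface.

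The 2021 library held 3214 barcodes and 8534578 UMIs, with a median of 2158 UMIs per barcode (502 to 18653), and the 2024 library held 2815 barcodes and 24569270 UMIs. After filtering, 3185 cells were kept. They fell into 26 clusters, of which 23 were named from marker genes, giving 14 classes, and 192 cells stayed unnamed. Although the labels call the cells macrophages, 357 cells (11.2%) were macrophage-like. The other large classes were neutrophil-like (486 cells), T lineage-like (384), classical monocyte-like (341), type 2 conventional dendritic cell-like (cDC2-like, 322), NK and ILC-like (293), B lineage-like (203), nonclassical monocyte-like (177), type 1 conventional dendritic cell-like (cDC1-like, 159), mature dendritic cell-like (134) and plasmacytoid dendritic cell-like (pDC-like, 95). The members and other Fc receptor genes were kept out of the clustering and out of the markers. Levels are CPM, the UMIs of a gene per 1e6 UMIs, both summed over the cells of a class, with 95% Poisson intervals. With 1 library there was no replicate and no test. The intervals cover counting error only.

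Positions are given on GRCm38, the build named in the submitters' processing notes as mm10. Fcgr2b (chr1:170958617-170976547, minus strand), Fcgr4 (chr1:171018920-171029761, plus strand), Fcgr3 (chr1:171051174-171064935, minus strand) and Fcer1g (chr1:171229572-171234365, minus strand) are neighbours, Fcgr1 is at chr3:96282909-96293969 on the minus strand, and Fcgrt is at chr7:45092990-45103851 on the minus strand. An antisense gene overlaps Fcgr2b (Gm38204) and another overlaps Fcgrt (Gm45669), and no source used here states whether counting used strand. Fcgr2b and Fcgr3 share a run of 129 identical bases in their transcripts, but no run longer than 9 bases in the last 500 bases, where this chemistry primes. Among the other pairs the longest shared run in the last 500 bases was 14 bases.

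The stretches just upstream of the 3 activating receptor genes are shown because these genes differed in the cells that held their transcripts. Sequences are RefSeq's (GRCm38.p6), from 150 bases before the annotated start to the base before it, without bases annotated as exon. Capitals mark matches to 2 motifs searched on both strands: GAGGAA, a form of the site bound by the myeloid factor Spi1, and TTCNNNGAA, the palindrome bound by STAT factors. The first reads TTCCTC on the opposite strand. Each is printed 5′ to 3′ on the gene's own strand.
Fcgr1, chr3:96293970-96294119, minus strand: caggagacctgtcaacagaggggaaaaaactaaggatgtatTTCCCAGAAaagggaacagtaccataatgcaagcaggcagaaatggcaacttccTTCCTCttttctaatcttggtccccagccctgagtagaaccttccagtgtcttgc
Fcgr3, chr1:171059404-171059553, minus strand: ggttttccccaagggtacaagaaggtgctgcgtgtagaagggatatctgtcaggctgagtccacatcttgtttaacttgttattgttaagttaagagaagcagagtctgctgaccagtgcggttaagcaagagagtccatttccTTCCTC
Fcgr4, chr1:171018776-171018919, plus strand: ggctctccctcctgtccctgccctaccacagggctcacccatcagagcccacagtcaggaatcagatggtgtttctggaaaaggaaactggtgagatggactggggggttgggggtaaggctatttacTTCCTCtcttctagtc
Fcgr1 held TTCCTC at bases -55 to -50 and TTCCCAGAA at -109 to -101, counted from the start. Fcgr3 held TTCCTC at -6 to -1 of the first of its 2 listed starts, in a window that lies inside the span of longer transcripts, and Fcgr4 held it at -22 to -17. The longest run shared by the Fcgr1 and Fcgr3 stretches was 10 bases. Neither motif was in the 150 bases before the starts of Fcgr2b, Fcer1g and Fcgrt, searched whole, with bases annotated as exon included. Of 32851 such windows in the table, 14.5% held GAGGAA, 4.09% held TTCNNNGAA and 0.539% held both. Other forms of these sites, such as shorter cores, were not searched, so a window without a match may still hold one. These matches are letters in a window and not measured binding.

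Transcripts of Fcgr1, the gene of the sorted protein, were few and concentrated in macrophage-like and monocyte-like cells. The library held 266 Fcgr1 UMIs in 207 cells (6.50% of cells). Macrophage-like cells had 146 CPM (124 to 171), 2.39 times (1.77 to 3.28) the 60.9 CPM (46.5 to 78.4) of classical monocyte-like cells. Nonclassical monocyte-like cells had 36.7 CPM (18.3 to 65.7), which did not separate from the classical level. The 21 cavity macrophage-like cells, led by Saa3 and Prg4, had 2 UMIs. These 4 classes held 28.1% of the cells and 226 of the 266 UMIs (85.0%, exact binomial interval 80.1 to 89.0). The share was 55.1 to 60.4% under the 4 alternatives of the cell filter and the doublet step, where up to 114 of the 173 cells of the macrophage-like cluster led by Ccl12 and Cxcl9 had no class name, while the level in the other named classes stayed between 4.45 and 7.63 CPM under every alternative run.

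The remaining named classes held 35 Fcgr1 UMIs in 2097 cells, a level of 6.82 CPM (4.75 to 9.48). B lineage-like cells were at 12.5 CPM (4.05 to 29.1), cDC2-like cells at 11.1 (5.92 to 19.0), T lineage-like cells at 7.61 (2.79 to 16.6), NK and ILC-like cells at 6.38 (0.772 to 23.0), cDC1-like cells at 5.19 (1.07 to 15.2) and neutrophil-like cells at 4.38 (1.42 to 10.2). The others overlap the level in T lineage-like cells, which were taken as the background for IgG receptors. Mature dendritic cell-like cells had 1 UMI. The pDC-like cells had none, which allows up to 11.4 CPM by the limit of 3 UMIs.

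Fcgr1 also varied within classes. Among macrophage-like clusters it was 178 CPM (127 to 241) in the 76 cells led by Gdf15, Vcam1, Slc40a1 (the iron exporter) and Spic, 163 (131 to 199) in the 173 cells led by Ccl12, Cxcl9 and Cxcl10, and 77.0 (46.4 to 120) in the 108 cells led by Ccl8, Apoc1 and Apoe. The classical monocyte-like cells split more sharply. The 284 cells led by F13a1 had 59 UMIs (87.3 CPM, 66.4 to 113), and the 57 cells led by histone and division genes had 1 UMI (3.24 CPM, 0.0819 to 18.0), although their median depth was higher (5469 against 2225 UMIs).

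**Figure D1:**
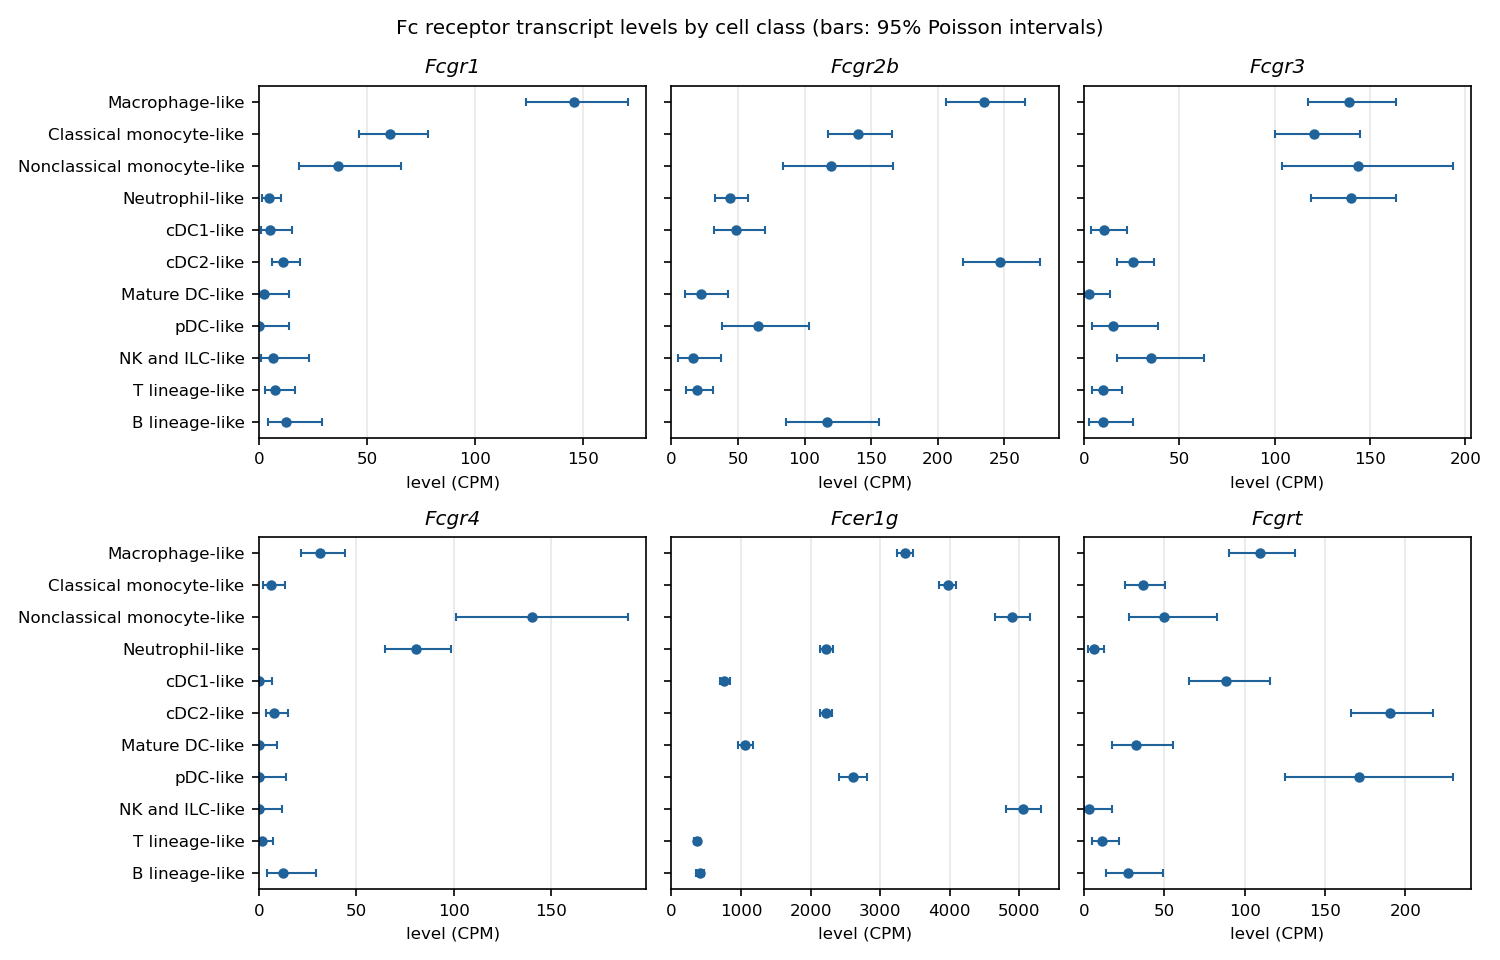
Level of each member (CPM, horizontal axes starting at 0) in the 11 classes of 50 or more cells; points are sums over the cells of a class and bars are 95% Poisson intervals. Fcgr1 is highest in macrophage-like cells (146), Fcgr2b in cDC2-like (247) and macrophage-like cells (234), Fcgr4 in nonclassical monocyte-like cells (140, an order that turns against neutrophil-like cells with median-of-ratios scaling) and Fcer1g in NK and ILC-like cells (5058).

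Fcgr3, the low-affinity activating receptor, was found at 121 to 144 CPM in 4 phagocyte classes when levels were scaled by total UMIs. Nonclassical monocyte-like cells had 144 CPM (104 to 193), neutrophil-like cells 140 (119 to 163), macrophage-like cells 139 (118 to 164) and classical monocyte-like cells 121 (100 to 145), and no neighbours in this order separated. The 21 cavity macrophage-like cells stood above them at 401 CPM (269 to 576), 2.80 times (1.68 to 4.58) the nonclassical level. NK and ILC-like cells had 11 UMIs (35.1 CPM, 17.5 to 62.8), 3.46 times (1.27 to 9.90) the 10.1 CPM of T lineage-like cells. The B lineage-like cells (9.98 CPM) and cDC1-like cells (10.4 CPM) lay at the T lineage level.

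Within the neutrophil-like class, Fcgr3 differed between the clusters. It was 68.4 CPM (45.0 to 99.5) in the cells led by the granule genes Camp, Ngp and Fcnb, 147 (110 to 192) in those led by Ltf and Ly6g, 155 (108 to 215) in those led by Retnlg and Mmp8, and 279 (204 to 374) in those led by Cstdc4, Stfa2l1 and Csf3r. The first and last intervals do not overlap. Median depth fell in the same order of clusters, at 5869, 2018, 1704 and 905 UMIs. Fcer1g rose in that order as well, at 1572, 1982, 2763 and 3624 CPM. The part of depth in these levels was not tested. Neutrophil-like levels depend on the scaling: 12 neutrophil marker genes alone summed to 466833 CPM in this class, and with median-of-ratios scaling in place of total UMIs its Fcgr3 level was 245 CPM.

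Fcgr4, an activating receptor for IgG complexes, was highest in nonclassical monocyte-like cells when levels were scaled by total UMIs. Its 193 UMIs gave 140 CPM (101 to 189) in nonclassical monocyte-like cells, 80.5 (64.9 to 98.7) in neutrophil-like cells and 31.5 (21.7 to 44.2) in macrophage-like cells, and each separated from the next. With median-of-ratios scaling the order of the first pair turned, at 123 CPM in nonclassical monocyte-like and 141 in neutrophil-like cells. At a resolution of 0.5 the class named nonclassical monocyte-like had 49.5 CPM. Classical monocyte-like cells had 6 UMIs (6.09 CPM, 2.24 to 13.3). The nonclassical level was therefore 23.0 times (9.74 to 66.2) the classical one. Of 341 classical monocyte-like cells 6 had an Fcgr4 UMI (1.76%), against 38 of 177 nonclassical ones (21.5%), at median depths of 2384 and 1524 UMIs. No Fcgr4 UMI was found in the cDC1-like, mature dendritic cell-like, pDC-like or NK and ILC-like cells, which allows at most 5.19, 7.5, 11.4 and 9.57 CPM. Across the neutrophil-like clusters Fcgr4 had the same order as Fcgr3, with 38.0, 77.7, 106 and 155 CPM. The interval of the lowest (21.3 to 62.6) did not overlap those of the higher pair (68.0 to 158 and 100 to 229).

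Fcgr2b, the inhibitory receptor, was the most abundant IgG receptor transcript, with 991 UMIs in 634 cells (19.9%). It was about as high in cDC2-like cells (247 CPM, 219 to 277) as in macrophage-like cells (234, 206 to 266), a ratio of 1.05 (0.886 to 1.25). Of the 246 macrophage-like UMIs, 176 came from the cells led by Ccl12 and Cxcl9, many of which lost that class name under some alternatives. Classical monocyte-like cells followed at 140 (118 to 165), nonclassical ones at 120 (84.1 to 166) and B lineage-like cells, where it is known as the main IgG receptor, at 117 (86.1 to 156). The pDC-like cells had 64.8 CPM (37.7 to 104), cDC1-like cells 48.4 (32.2 to 70.0) and neutrophil-like cells 43.8 (32.5 to 57.7). Each of these exceeded the T lineage background of 19.0 (10.6 to 31.4). Mature dendritic cell-like cells (22.5, 10.3 to 42.7) and NK and ILC-like cells (15.9, 5.18 to 37.2) did not. That background was uneven, at 48.9 CPM (19.6 to 101) in the 153 T lineage-like cells led by Rag1. In the 95 led by Tnfrsf4 it was 24.6 (5.07 to 71.9), and in the 136 led by Dntt 9.55 (3.10 to 22.3). Only the cDC2-like, macrophage-like and classical monocyte-like intervals lie above that of the cells led by Rag1. With median-of-ratios scaling neutrophil-like cells had 76.5 CPM of Fcgr2b, against 57.4 in pDC-like and 44.9 in cDC1-like cells.

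The macrophage-like clusters ranked differently for Fcgr2b than for Fcgr3 and Fcgrt. The cells led by Ccl12, Cxcl9 and Cxcl10 had 308 CPM of Fcgr2b (264 to 357), those led by Ccl8 and Apoc1 178 (130 to 239) and those led by Gdf15 and Vcam1 113 (73.6 to 165). Fcgr3 was 99.7 (75.5 to 129), 150 (106 to 207) and 225 (168 to 295) CPM in the same order, and the first and last intervals do not overlap for either gene. Both cDC2-like clusters were high in Fcgr2b, at 287 CPM (246 to 333) in the 148 cells led by Cd209e and Cd209d and 205 (170 to 246) in the 174 cells led by Clec10a and Cd209a. Fcgr3, in contrast, had 1 UMI in the former and 29 UMIs (50.9 CPM, 34.1 to 73.0) in the latter.

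**Figure D2:**
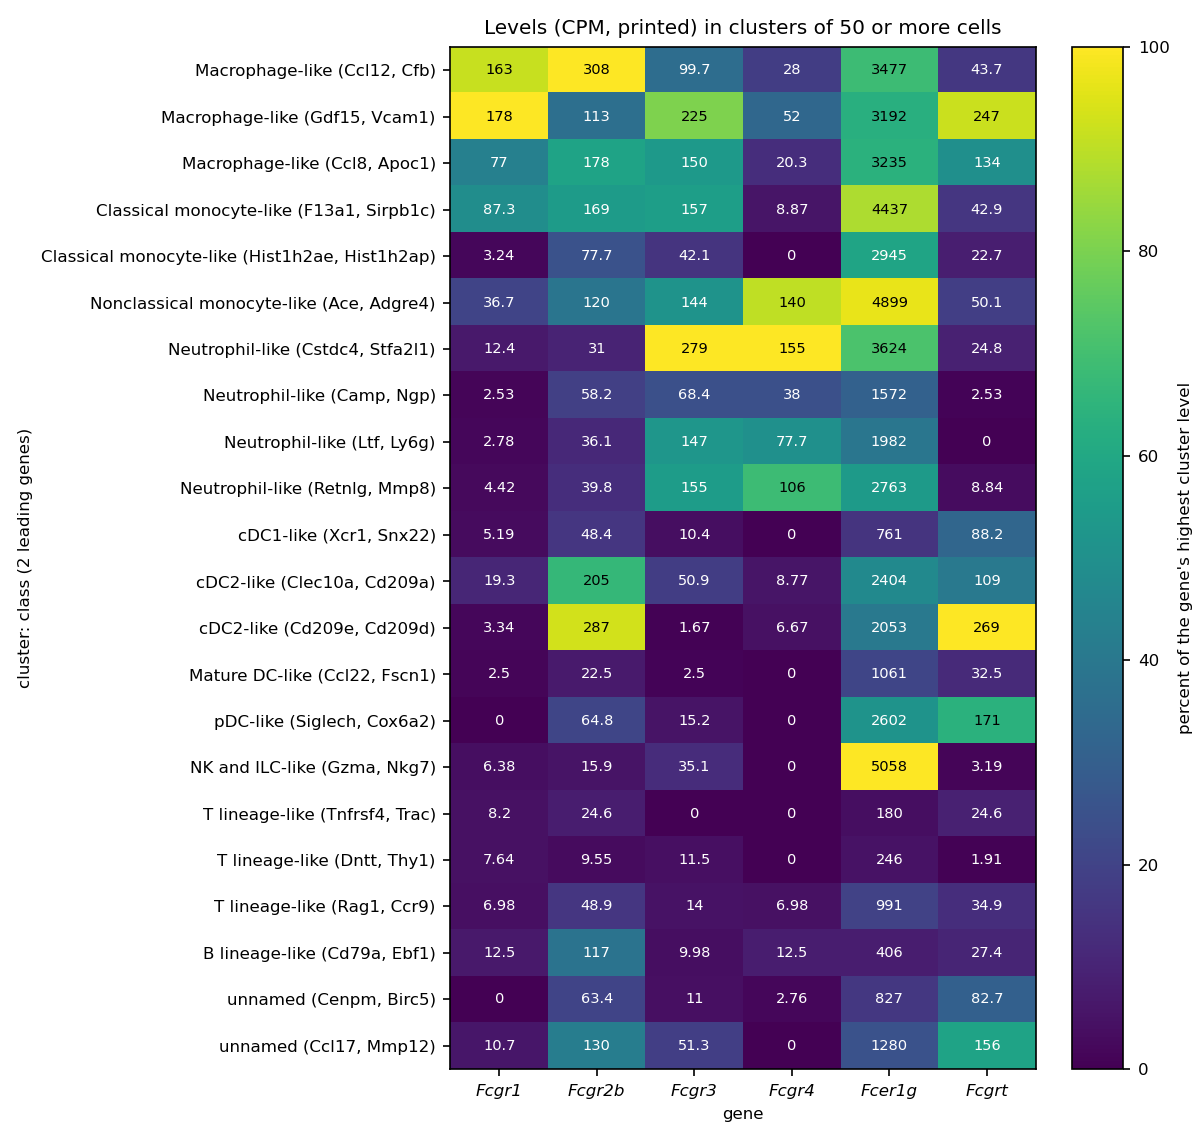
Levels of the 6 members in the clusters of 50 or more cells, labelled by class and 2 leading genes; printed numbers are CPM, and colour is the percent of the gene's highest cluster level. The cluster led by Gdf15 and Vcam1 is high in Fcgr1 (178), Fcgr3 (225) and Fcgrt (247) with Fcgr2b at 113, while the cDC2-like cluster led by Cd209e has Fcgr2b at 287 and Fcgr3 at 1.67.

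The number of activating receptor UMIs (Fcgr1, Fcgr3 and Fcgr4) per Fcgr2b UMI was used to set classes side by side. Since capture differs between genes, a ratio of 1 has no meaning of its own. It was 5.14 (3.78 to 7.11) in neutrophil-like cells, 2.67 (1.80 to 4.03) in nonclassical monocyte-like cells, 1.35 (1.14 to 1.60) in macrophage-like cells and 1.34 (1.07 to 1.68) in classical monocyte-like cells. It was lower in 4 classes, at 0.321 (0.133 to 0.701) in cDC1-like, 0.298 (0.151 to 0.550) in B lineage-like, 0.235 (0.0576 to 0.721) in pDC-like and 0.180 (0.131 to 0.242) in cDC2-like cells. T lineage-like cells, with 15 UMIs on each side, were at 1 (0.456 to 2.20) and NK and ILC-like cells at 2.6 (0.870 to 9.31), both overlapping the macrophage-like interval. The cDC2-like ratio ranged from 0.0398 to 0.5 over the alternatives, which place its 2 clusters in different classes. Within the macrophage-like class the cells led by Gdf15 and Vcam1 had 4.04 (2.61 to 6.47) and those led by Ccl12 and Cxcl9 had 0.943 (0.758 to 1.17). The neutrophil-like clusters were at 1.87 (1.10 to 3.25) in the cells led by Camp and Ngp and 6.31 (3.49 to 12.3) in those led by Ltf. Those led by Retnlg were at 6.67 (3.29 to 15.3) and those led by Cstdc4 at 14.4 (5.89 to 45.7). All 4 intervals overlap that of the macrophage-like cells led by Gdf15, and all but the last overlap that of the nonclassical monocyte-like cells. The widest distance was between the neutrophil-like cells led by Cstdc4 (14.4, 5.89 to 45.7) and the cDC2-like cells led by Cd209e (0.0407, 0.0161 to 0.0857).

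**Figure D3:**
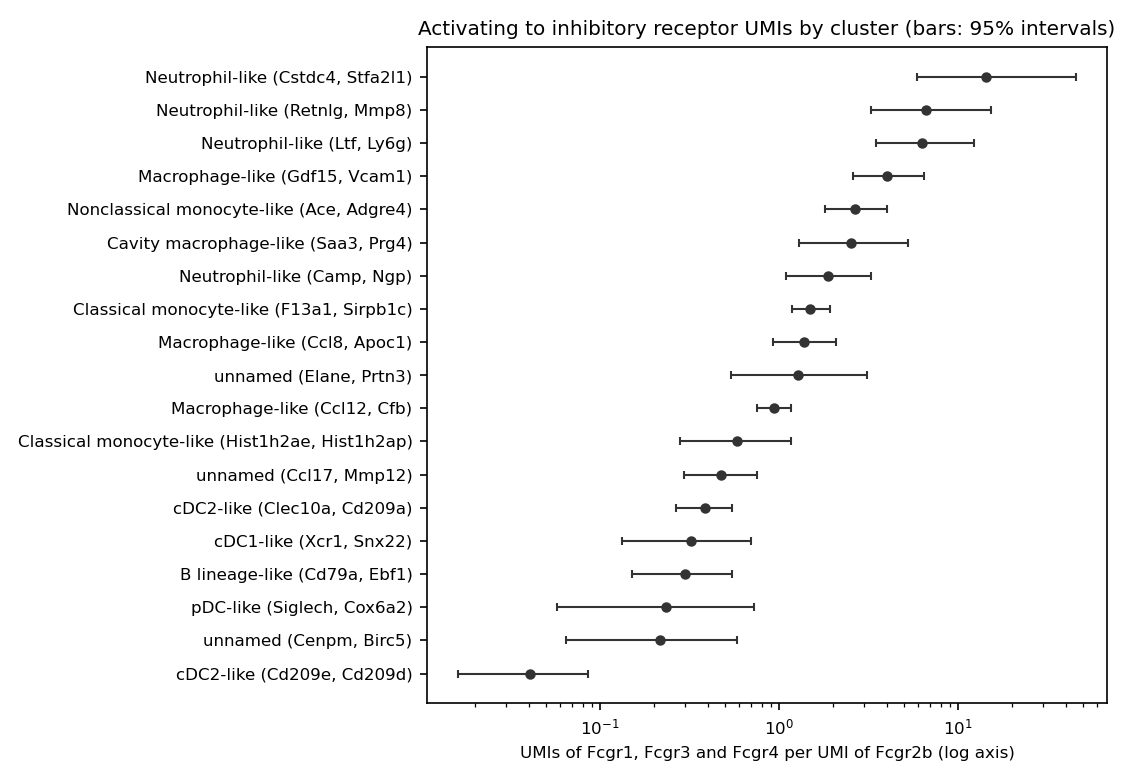
Activating receptor UMIs (Fcgr1, Fcgr3 and Fcgr4) per Fcgr2b UMI on a log axis, for clusters with at least 20 such UMIs; points are ratios of sums and bars are 95% intervals. Of the 4 neutrophil-like clusters 3 have points at 6.31 to 14.4, above the points of the macrophage-like clusters (0.943 to 4.04), and the one led by Camp and Ngp is at 1.87. The bars of all 4 overlap that of the macrophage-like cluster led by Gdf15. The cDC2-like cluster led by Cd209e is lowest (0.0407).

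Fcer1g, the signalling chain, was the most abundant member, with 18918 UMIs in 79.7% of cells. NK and ILC-like cells (5058 CPM, 4812 to 5313) and nonclassical monocyte-like cells (4899, 4652 to 5156) were highest, at a ratio of 1.03 (0.961 to 1.11). Classical monocyte-like cells had 3969 CPM (3845 to 4095), macrophage-like cells 3357 (3247 to 3470), pDC-like cells 2602 (2410 to 2804), neutrophil-like cells 2226 (2141 to 2315) and cDC2-like cells 2224 (2140 to 2312). With median-of-ratios scaling this order changed, with 3893 CPM in neutrophil-like cells. Classical monocyte-like cells then had 3414, macrophage-like 3068, pDC-like 2305 and cDC2-like cells 2061. All 11 basophil or mast-like cells carried Fcer1g, at 4060 CPM (2972 to 5415) by total UMIs. The lowest large classes were cDC1-like (761, 692 to 836), B lineage-like (406, 346 to 474) and T lineage-like cells (372, 330 to 417). The last 2 did not separate (ratio 1.09, 0.898 to 1.33). The T lineage-like clusters were at 991 CPM (835 to 1168) in the cells led by Rag1, 180 in those led by Tnfrsf4 and 246 in those led by Dntt. In NK and ILC-like cells a high Fcer1g level thus stood beside 11 Fcgr3 UMIs and no Fcgr4 UMI. The 10 plasma cell-like cells had no UMI of Fcer1g in 67598 UMIs.

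Fcgrt, the heavy chain of the neonatal Fc receptor, had its highest levels in cDC2-like (191 CPM, 166 to 217) and pDC-like cells (171, 125 to 229), which did not separate. Macrophage-like cells had 110 CPM (90.5 to 132) and cDC1-like cells 88.2 (65.7 to 116). Both cDC2-like and macrophage-like cells were mixed: the cells led by Cd209e had 269 CPM (229 to 313) against 109 (83.4 to 139) in those led by Clec10a, and the macrophage-like cells led by Gdf15 and Vcam1 had 247 (187 to 320) against 43.7 (28.3 to 64.6) in those led by Ccl12 and Cxcl9. Classical monocyte-like cells had 36.5 CPM (25.6 to 50.6). Neutrophil-like cells had 7 UMIs (6.13 CPM, 2.46 to 12.6) and NK and ILC-like cells had 1 UMI. B2m, its partner chain, was high in every large class, from 707 CPM in T lineage-like to 3382 CPM in mature dendritic cell-like cells. It followed another order, since the pDC-like cells, high in Fcgrt, had 994 CPM of B2m.

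Many cells of the sort had no Fcgr1 UMI and a UMI of Fcgr2b, Fcgr3 or Fcgr4. To compare classes of unequal depth, each cell was reduced at random to 2000 UMIs, which drops cells with fewer. Outside the macrophage-like and monocyte-like classes, 236 of 1032 such cells (22.9%, exact binomial interval 20.3 to 25.6) were in this state, and 478 of 2097 cells (22.8%) without thinning. Thinned to 1000 UMIs, which leaves fewer UMIs in every cell and keeps shallower cells, the share was 13.03%, so it depends on the depth chosen. The share was 39.7% (34.1 to 45.4) of 305 cDC2-like cells, 33.0% (26.5 to 40.03) of 197 neutrophil-like cells and 21.3% (12.7 to 32.3) of 75 B lineage-like cells. The T lineage-like background was 6.19% (2.53 to 12.3) of 113 cells, and these 3 classes lay above it. Thinning left out 17 cDC2-like, 289 neutrophil-like, 128 B lineage-like and 271 T lineage-like cells. The T lineage-like cells led by Rag1, highest of that class in Fcgr2b (48.9 CPM), had a median depth of 614 UMIs. Those led by Dntt, lowest in Fcgr2b (9.55 CPM), had 2714.5. The thinned background therefore leaves out most cells led by Rag1. Unthinned shares were 52.5%, 39.5%, 18.7% and 4.17%, at median depths of 3436, 1709, 1596 and 1064 UMIs.

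The classes reached this state through different receptors. In cDC2-like cells it was Fcgr2b, present in 115 of the 305 thinned cells (37.7%), and in neutrophil-like cells it was mostly Fcgr3 (27.2% of all 486 cells) and Fcgr4 (15.6%), with Fcgr2b in 8.02%. In B lineage-like cells 14 of 75 thinned cells (18.7%) had Fcgr2b. The pDC-like cells (11.1%, 5.21 to 20.05), cDC1-like cells (9.29%, 5.04 to 15.4) and mature dendritic cell-like cells (3.85%, 1.06 to 9.56) overlapped the T lineage-like background. Unthinned, pDC-like cells (15.8%, 9.12 to 24.7) and cDC1-like cells (14.5%, 9.40 to 20.9) lay above the T lineage-like share (4.17%, 2.40 to 6.68), at median depths of 2772, 3489 and 1064 UMIs, and mature dendritic cell-like cells (5.22%) overlapped it. Only 8 NK and ILC-like cells reached 2000 UMIs. Unthinned, 4.78% (2.64 to 7.89) of them were in this state. Macrophage markers were measured beside these shares, as a sum over a list of 14 genes: 333 CPM in cDC2-like, 573 in neutrophil-like, 2716 in B lineage-like and 881 in T lineage-like cells, against 20299 in macrophage-like cells. Their part in the shares was not tested. Whether a cell was sorted through bound antibody cannot be read from transcripts.

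**Figure D4:**
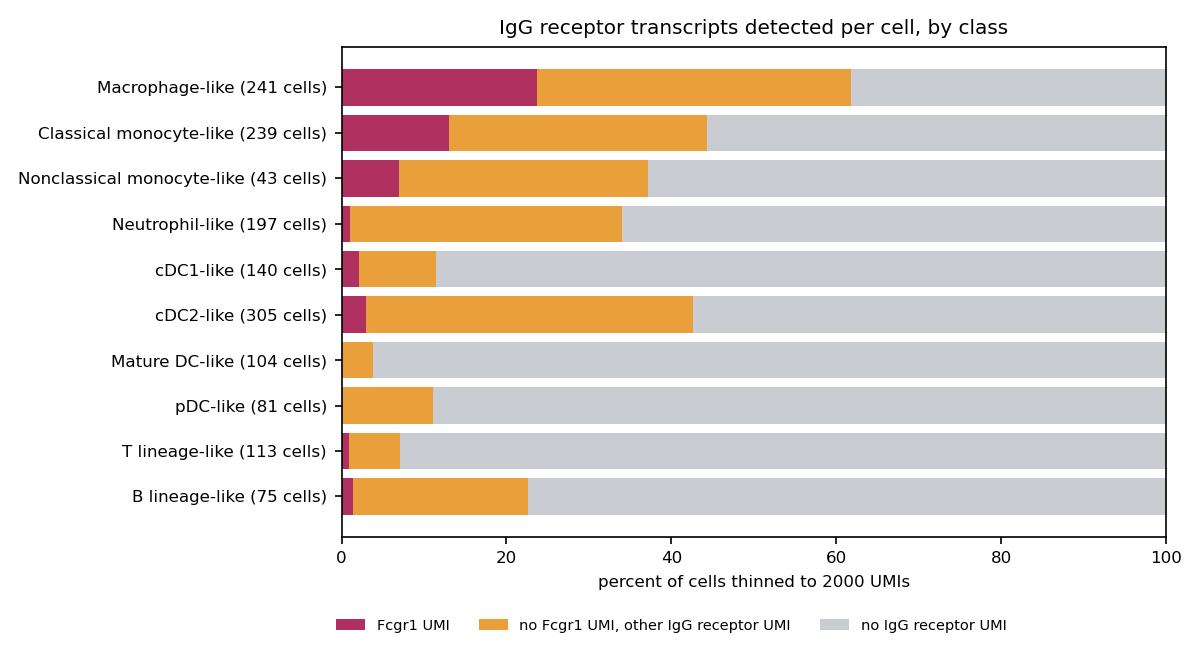
Percent of cells, after thinning each cell to 2000 UMIs, with an Fcgr1 UMI (red), with none but a UMI of Fcgr2b, Fcgr3 or Fcgr4 (orange) and with no IgG receptor UMI (grey), for classes with at least 40 such cells. The orange part is 39.7% in cDC2-like, 33.0% in neutrophil-like and 21.3% in B lineage-like cells, against 6.19% in T lineage-like cells.

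Related classes were set against each other with a log2 ratio of CPM (10 CPM added to both sides), called higher or lower past 1, for genes with at least 20 UMIs in the pair. Against classical monocyte-like cells, macrophage-like cells had 3 of 6 members called higher, with 9.35% of 7261 genes called higher, and none lower (3.42%). These were Fcgr1 (2.39 times), Fcgr4 (5.17 times, 2.14 to 15.1) and Fcgrt (3.0 times, 2.05 to 4.49). The Fcgr1 call held under 7 of 10 alternatives, with a log2 ratio of 0.72 to 1.30, and the Fcgr4 call under 9 of 10, with a log2 ratio of 0.35 when cells were assigned by their own markers. With median-of-ratios scaling 2 of the 6 were called higher, where 555 of 7261 genes were. Nonclassical against classical monocyte-like cells gave 1 of 6 members higher, Fcgr4, with 7.23% of genes called higher, and none lower (5.73%). Neutrophil-like against classical monocyte-like cells gave Fcgr4 higher (13.2 times, 5.85 to 37.0, where 8.38% of genes were called higher) and Fcgr1, Fcgr2b and Fcgrt lower, where 29.0% of genes were called lower. With median-of-ratios scaling 2 were called lower, where 881 of 6507 genes were.

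Of 4 members tested, 3 were called higher in cDC2-like than in cDC1-like cells, with 4.22% of 6132 genes called higher (and 1.44% lower, no member among them): Fcgr2b (5.10 times, 3.46 to 7.81), Fcer1g (2.92 times, 2.64 to 3.24) and Fcgrt (2.16 times, 1.59 to 2.99). The Fcgr2b call held under 11 of 11 alternatives, the Fcer1g call under 9 of 11 (lowest log2 ratio 0.23) and the Fcgrt call under 7 of 11. At resolutions 0.5 and 1.0 the class named cDC1-like took in 169 and 164 of the 174 cells led by Clec10a. It also took in 95 and 90 of the 95 pDC-like cells, so these alternatives do not repeat the same comparison. The Fcgrt difference turned under both alternatives of the cell filter (log2 ratios of -0.23 and -0.18), where most cells led by Cd209e were named pDC-like. Mature dendritic cell-like cells, led by Ccl22, Fscn1 and Ccr7, had 3 of 4 tested members called lower than the conventional dendritic classes together, with 11.6% of genes called lower. No member was called higher. Fcgr2b was 22.5 against 181 CPM (0.124 times, 0.0562 to 0.239), Fcgrt 32.5 against 157 CPM (0.207 times, 0.109 to 0.361) and Fcgr3 1 against 36 UMIs (0.121 times, 0.00299 to 0.721). The Fcer1g level was 0.609 times (0.549 to 0.675) and was not called. NK and ILC-like against T lineage-like cells gave 1 of 2 tested members higher, Fcer1g (13.6 times, 12.0 to 15.5), with 6.48% of genes called higher, and none lower (24.3%).

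Against all other kept cells, the percentages in brackets give the share of 10665 genes with the same call. For median-of-ratios scaling the brackets give the number of those genes. T lineage-like cells had 6 of 6 members called lower (8.13%) and none higher (15.5%). Mature dendritic cell-like cells had 6 of 6 lower (12.0%) and none higher (5.33%), or 4 of 6 lower with median-of-ratios scaling (1046 genes). In cDC1-like cells 5 of 6 were lower (7.29%), all but Fcgrt, and none higher (0.759%). Macrophage-like cells had 3 of 6 higher (4.84%), namely Fcgr1, Fcgr2b and Fcgr3, or 2 with median-of-ratios scaling, and none lower. In cDC2-like cells Fcgr2b and Fcgrt were higher (1.14%), and Fcgr1 and Fcgr3 lower (5.60%). With the stricter cell filter the Fcgr3 log2 ratio turned from -1.30 to 0.30. In nonclassical monocyte-like cells Fcgr4 and Fcer1g were higher (4.69%) and none lower (6.96%). Classical monocyte-like cells had Fcgr4 lower (5.01%) and none higher (1.39%), or 1 higher with median-of-ratios scaling (173 genes). Neutrophil-like cells had Fcgr3 and Fcgr4 higher (5.17%) and Fcgr1, Fcgr2b and Fcgrt lower (23.5%), or 2 lower with median-of-ratios scaling (1086 genes). In pDC-like cells Fcgrt was higher (1.77%) and Fcgr1, Fcgr3 and Fcgr4 lower (9.50%). NK and ILC-like cells had Fcer1g higher (5.46%) and Fcgr1, Fcgr2b, Fcgr4 and Fcgrt lower (11.6%). B lineage-like cells had no member higher (3.13%) and Fcgr3, Fcer1g and Fcgrt lower (9.25%).

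Among 16 genes of IgG receptor signalling, nonclassical monocyte-like cells had 7 called higher (4.69% of all genes) and 1 lower (6.96%) against all other cells, with a list median log2 ratio of 0.90 against -0.05 over all genes tested. Among those called higher were the kinases Syk (217 CPM), Lyn (531) and Fgr (327), the adapter Lcp2 (250) and the phosphatase Ptpn6 (454). Mature dendritic cell-like cells had 10 of 16 lower (12.0% of all genes) and 2 higher (5.33%), with a median of -1.27 against -0.26. Lyn was there at 70.0 CPM and Inpp5d, the phosphatase recruited by Fcgr2b, at 27.5 CPM. T lineage-like cells had 7 of 16 lower (8.13%) and none higher (15.5%).

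Receptors that borrow the Fcer1g chain were uneven between classes. Of 9 listed genes 7 could be tested, and 4 were called higher in neutrophil-like cells (5.17% of all genes): Clec4e (the C-type lectin Mincle, 258 CPM), Clec4d (87.5), Tarm1 (33.3) and Cd300ld (50.8). Nonclassical monocyte-like cells had 3 of 7 higher (4.69%), Clec4e, Cd300c2 and Cd300ld, and 1 lower (6.96%), Tarm1. The 21 cavity macrophage-like cells had 4 of 7 higher, where 1246 of 10665 genes were called higher, and Tarm1 lower, where 1530 were called lower. Macrophage-like cells had Clec4n (the C-type lectin Dectin-2, 196 CPM) and Cd300c2 (456) higher (4.84%). All 7 were called lower in NK and ILC-like (11.6%) and T lineage-like cells (8.13%). They were also called lower in the 11 basophil or mast-like cells (5323 of 10665 genes) and the 10 plasma cell-like cells (5079 of 10665). These small classes held 11330 and 67598 UMIs, so calls there say little about these genes. In NK and ILC-like cells the signalling adapters Cd247 (105 CPM) and Hcst (1250) were called higher. Tyrobp, another signalling adapter, was at 5367 CPM there.

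Receptors for other antibody classes and Fc receptor-like genes marked the B lineage. Of 7 tested genes, 5 were called higher in B lineage-like cells (3.13% of all genes): Fcmr (the IgM receptor, 279 CPM), Fcrla (157), Fcer2a (the low-affinity IgE receptor, 89.8), Fcrl5 (82.3) and Fcrl1 (54.9). Fcer1a and Ms4a2, the other subunits of the high-affinity IgE receptor, had 3 and 5 UMIs, all in the 11 basophil or mast-like cells. Fcrls was at 249 CPM in cavity macrophage-like cells. The IgG heavy chains Ighg2b (39217 CPM) and Ighg2c (19083 CPM) were carried by the 10 plasma cell-like cells. Macrophage-like cells had 12 UMIs of Ighg2b.

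The genes whose cluster levels ran closest to each member were listed over 23 named clusters and 6540 genes, as a description. Fcgr1 was followed most closely by Tmem86a (Pearson r 0.905), Itgb5 (0.903) and Calhm6 (0.899), and Fcgr4 by Pilra (0.917), Pilrb1 (0.899) and Fgd4 (0.894). For Fcgr3 these were Cln3 (0.879), Lamp2 (0.869) and Fes (0.856), and for Fcgr2b they were Atf6 (0.763), Slamf8 (0.750) and Ms4a6c (0.747), the weakest matches. Tyrobp followed Fcer1g (0.984), ahead of Arpc2 (0.918) and Rnf130 (0.886). Fcgrt was followed by Tmem141 (0.917), G6pc3 (0.915) and Ckb (0.890). Between members, Fcgr3 and Fcgr4 had the highest r (0.736), then Fcer1g with Fcgr3 (0.661) and Fcgr2b with Fcgrt (0.641), and Fcgr4 with Fcgrt the lowest (0.041). The clusters share 1 library, and their depths differ.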

How the data were processed

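Single-cell 3′ RNA of CD64-sorted thymus cells was measured in 2 libraries. The deposited files hold unnormalised counts of UMIs for every gene in each barcode, made with Cell Ranger 6.0.0 (2021) and 8.0.0 (2024) per the file headers, and the submitters' processing notes name mm10. No gene list was used for the 2024 library, so its gene rows carry no names here and its barcodes could not be compared with those of 2021. No column of per-sample values was left unmapped.

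A barcode was kept when it reached 500 UMIs and 300 detected genes and had no more than 10% of its UMIs from mitochondrial genes (3188 of 3214). Scrublet in scanpy 1.11.5 called 3 doublets (0.0941%, expected 6%), which were removed, so most doublets, if present, remain. Counts were scaled to 10000 per cell, and 2000 variable genes, 30 components, 15 neighbours and Leiden clustering (igraph 0.11.9) gave the clusters. A cluster was named for a class with at least 3 raised markers, at least 1 of them among its 10 leading genes. The resolution was 2.0 instead of the planned 1.0, and the naming rule was tightened, after a first look at the clusters in which the members' levels were also visible, because at 1.0 a cluster mixed cDC1, cDC2 and pDC markers.

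CPM, intervals (95%) and ratios were computed from summed counts. A call is a log2 ratio past 1 after adding 10 CPM, over genes with 20 or more UMIs; these steps were tested on simulated data. A level for a count of 0 uses a limit of 3 UMIs. The members, lists and markers were chosen with earlier results of these data known. Named genes are the members, the 3 best correlated genes of each (100 or more UMIs) and listed genes. Alternatives were other cell filters, doublet steps, resolutions, clustering genes, cell-by-cell classes, scaling, added level, thinning depth and, chosen after seeing the data, naming without a marker among the leading genes. Values of 1 gene of the signalling list are not reported here.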

Additional observations from a re-analysis of the deposited data

How the results depend on the processing

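No paired analysis was possible because only 1 library had gene names, which also left no replicate to leave out. At the planned resolution of 1.0, the Fcgr1 level was 167 CPM in macrophage-like, 90.0 in classical monocyte-like and 6.74 in the other named classes, the share of Fcgr1 UMIs in macrophage-like and monocyte-like cells was 85.0%, and Fcgr2b in cDC2-like cells was 282 CPM. There 103 of the 108 cells led by Ccl8 and Apoc1 were named cavity macrophage-like, so the macrophage-like level is of a different set of cells. With cells assigned by their own markers, 96 of the 173 cells led by Ccl12 and Cxcl9 were named classical monocyte-like. The activating to inhibitory ratio of cDC2-like cells was 0.5 with the stricter filter (1000 UMIs, 500 genes, 5% mitochondrial), 0.4 with no filter, 0.0886 with cells assigned by their own markers and 0.0398 at resolutions 0.5 and 1.0. Fcgr2b in cDC2-like cells was 199.9 CPM with cells assigned by markers, 213 with doublet calls kept, 214 with the highest doublet scores removed, 167 with no filter and 289 at resolution 0.5. Fcgrt in macrophage-like cells was 133, 160, 147, 151 and 142 CPM with the stricter filter, cells assigned by markers, doublet calls kept, the highest scores removed and no filter. The percent of Fcgr1 UMIs in macrophage-like and monocyte-like cells was 55.1, 59.0, 60.4 and 60.4 with the stricter filter, doublet calls kept, highest scores removed and no filter. Fcgr1 in the other named classes was 4.45 CPM with the highest scores removed. Fcgr4 in nonclassical monocyte-like cells was 49.5 CPM at resolution 0.5. Fcer1g in NK and ILC-like cells was 4282 CPM with the stricter filter and 4391 with median-of-ratios scaling, which put Fcgr3 in neutrophil-like cells at 245. The share of cells of other named classes without an Fcgr1 UMI but with another IgG receptor UMI was 19.7% with cells assigned by markers and 13.03% when thinned to 1000 UMIs.

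Log2 ratios that turned were those of Fcgr2b in pDC-like cells (1.25 with no filter, -0.78 in the main analysis) and Fcgr3 in cDC2-like cells (0.30 with the stricter filter, -1.30 in the main analysis), both against all other cells; Fcgr3 in cDC2-like over cDC1-like cells (-1.87 and -1.80 at resolutions 0.5 and 1.0, 0.81 in the main analysis); Fcgrt in the same pair (-0.23 with the stricter filter and -0.18 with no filter, 1.03 in the main analysis); and Fcgr4 in cavity macrophage-like cells (-1.71 with cells assigned by markers, 0.21 in the main analysis). At resolutions 0.5 and 1.0, 169 and 164 of the 174 cells led by Clec10a were named cDC1-like. With the stricter filter 121 of 147 cells led by Cd209e were named pDC-like, and with no filter 134 of 148. The part of these changes of name in the turned ratios was not tested. Of the other log2 ratios, 1027 kept their direction and call, 47 were no longer called, 45 became called and 46 moved. Median-of-ratios scaling moved the median log2 ratio over all genes in neutrophil-like against classical monocyte-like cells from -0.48 to 0. Counting depth limits Fcgr1 and Fcgr4 most, with 266 and 193 UMIs in all.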

Other observations

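The 3 clusters without a class name carried members as well. The 125 cells led by Ccl17, Mmp12 and Epcam had 130 CPM of Fcgr2b (99.7 to 167), 156 of Fcgrt (122 to 196), 51.3 of Fcgr3 (32.9 to 76.3) and 1280 of Fcer1g, with 5 Fcgr1 UMIs and no Fcgr4 UMI. The 54 dividing cells led by Cenpm and Birc5, had 63.4 CPM of Fcgr2b (40.2 to 95.1) and 82.7 of Fcgrt (55.8 to 118), near the cDC1-like levels of 48.4 and 88.2, and no Fcgr1 UMI. The 13 cells led by Elane, Prtn3 and Mpo had 89.7 CPM of Fcgr3 (46.4 to 157) and no UMI of Fcgr1 or Fcgrt.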
